A study of Mus musculus with 6 samples.

Results

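The genes described here encode the machinery that stores neurotransmitter in synaptic vesicles and releases it. They were chosen by symbol from the count table: the synaptotagmins (Syt), syntaxins (Stx) and syntaxin-binding proteins (Stxbp), the Vamp and Snap proteins, and the Sv2, Rab3, Rims, complexin (Cplx), synapsin (Syn) and Unc13 families, with Syp, Bsn and Pclo. The rule took 72 of the 23420 genes in the table and used no measured value. Of these, 67 had enough reads to be tested, and 5 (Cplx4, Stx19, Syt8, Syt10 and Vamp7) did not pass the low-count filter.

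RNA sequencing compared neocortex labelled Tshz3 mutant with wild-type neocortex of mouse embryos, both at embryonic day 18.5, shortly before birth. Tshz3, a teashirt family gene, encodes a transcription factor with zinc fingers. Each group had 3 libraries, and each library came from 1 pool of cortices of 3 to 4 embryos. The pools drew on multiple litters. Allele structure, mouse strain and embryo sex are not given by the labels.

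As background, a vesicle fuses with the presynaptic membrane when a SNARE protein on the vesicle (synaptobrevin, encoded by Vamp genes) zips up with SNARE proteins of the target membrane (syntaxin and SNAP-25). Munc18 (Stxbp) and Munc13 (Unc13) proteins prepare this assembly, complexins hold it, and synaptotagmins trigger it when calcium enters. Rab3 and Rim proteins, with the large scaffolds Bassoon (Bsn) and Piccolo (Pclo), place vesicles at the active zone, the site of release. In the cortex around birth most neurons are still growing axons, and many of these genes also serve membrane delivery in growing processes.

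Total counts per library were 19894144 to 24147810 in mutant and 18569383 to 21052832 in wild-type libraries, and the 72 genes took 0.781% to 0.811% of them in mutant and 0.765% to 0.833% in wild-type libraries. Tshz3 transcript itself was 89.8, 93.0 and 99.2 CPM (a gene's counts scaled to a common library size) in mutant libraries 1, 2 and 3, against 78.6, 82.99 and 89.2 CPM in wild-type libraries, so the gene-level count did not check the genotype labels. All 8 markers of neocortical projection neurons were present. Marker genes of other cell types (45 in 9 lists) were present too, apart from Hbb-bt, which the table does not list, and Hba-a1, which had 0 reads in all 6 libraries. Choroid plexus markers stood out: their summed level was 794, 184 and 145 CPM in mutant libraries 1, 2 and 3 and 808, 117 and 221 CPM in wild-type libraries 1, 2 and 3. Both number 1 libraries were thus high, in either genotype. Meninges markers varied too, at 155, 56.1 and 39.3 CPM in mutant libraries 1, 2 and 3. They were 199, 122 and 29.6 CPM in wild-type libraries 1, 2 and 3. Among the markers reported here the paired fit described below called Bcl11b higher and Penk lower in mutant libraries, and the part of cell makeup in the results below was not tested. In pooled tissue, fewer cells of a type and less RNA per cell cannot be told apart.

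Without pairing, edgeR's quasi-likelihood test at an adjusted p of 0.05 called 0 of the 67 tested genes, and it called 0.0752% of all 14618 genes (0.0479% higher and 0.0274% lower in mutant libraries). Unadjusted p was under 0.05 for 6 of them in that fit (8.96%, against 7.09% of all genes), namely Snap29, Syt4, Syt6, Syt7, Syt16 and Rab3d. DESeq2 called 0 of the 67 as well at an adjusted p of 0.05, and it called 0.722% of all genes. The differences were small: 53 of the 67 had a log2 fold change (mutant over wild type) within 0.2 of 0, or 79.1%, against 79.3% of all genes. The median was −0.04 over the 67 and −0.01 over all genes, and 46 were below 0 and 21 above. Negative values made up 68.7% of these genes and 52.3% of all genes. Between same-numbered libraries the median log2 ratio over these genes was −0.09 (number 1), 0.03 (number 2) and −0.05 (number 3). The same medians over all genes are not given here.

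The mutant and the wild-type library of a given number tended to deviate in the same direction, so a fit that pairs libraries by number was run beside the first. It called 7 of the 67 genes at an adjusted p of 0.05, or 10.4%, where it called 3.46% of all genes (1.97% higher and 1.49% lower). Unadjusted p was under 0.05 for 16 of the 67 in the paired edgeR fit (23.9%, against 17.9% of all genes). Syt4, Snap29 and Rab3c rose, and Syt6, Syt7, Syt16 and Sv2b fell. For all 7 the mutant library was on the same side of the wild-type library of its number in 3 of 3 pairs. The paired fit favours genes of that kind, so this adds no separate evidence. The calls depended on which pairs were used, and a fit on 2 pairs has 1 residual degree of freedom. Without pair 1 the paired fit called 3 genes (Snap29, Stx3 and Syt6), and without pair 3 it called 0. Without pair 2 it called 17, of which 14 were lower in mutant libraries and 6 were among the 7. Of all genes the fit called 2.03% without pair 1, 0.421% without pair 3 and 12.8% without pair 2. The share of all genes called lower without pair 2 is not given here, so the 14 have no background beside them.

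The 3 mutant and 3 wild-type libraries did not overlap for 14 of the 67 genes (20.9%, against 13.5% of all genes). Mutant libraries were the higher ones for 8 of them (7.42% of all genes were so) and the lower ones for 6 (6.07% of all genes). The difference had the same sign in all 3 pairs for 21 of the 67 (31.3%, against 39% of all genes).

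**Figure D1:**
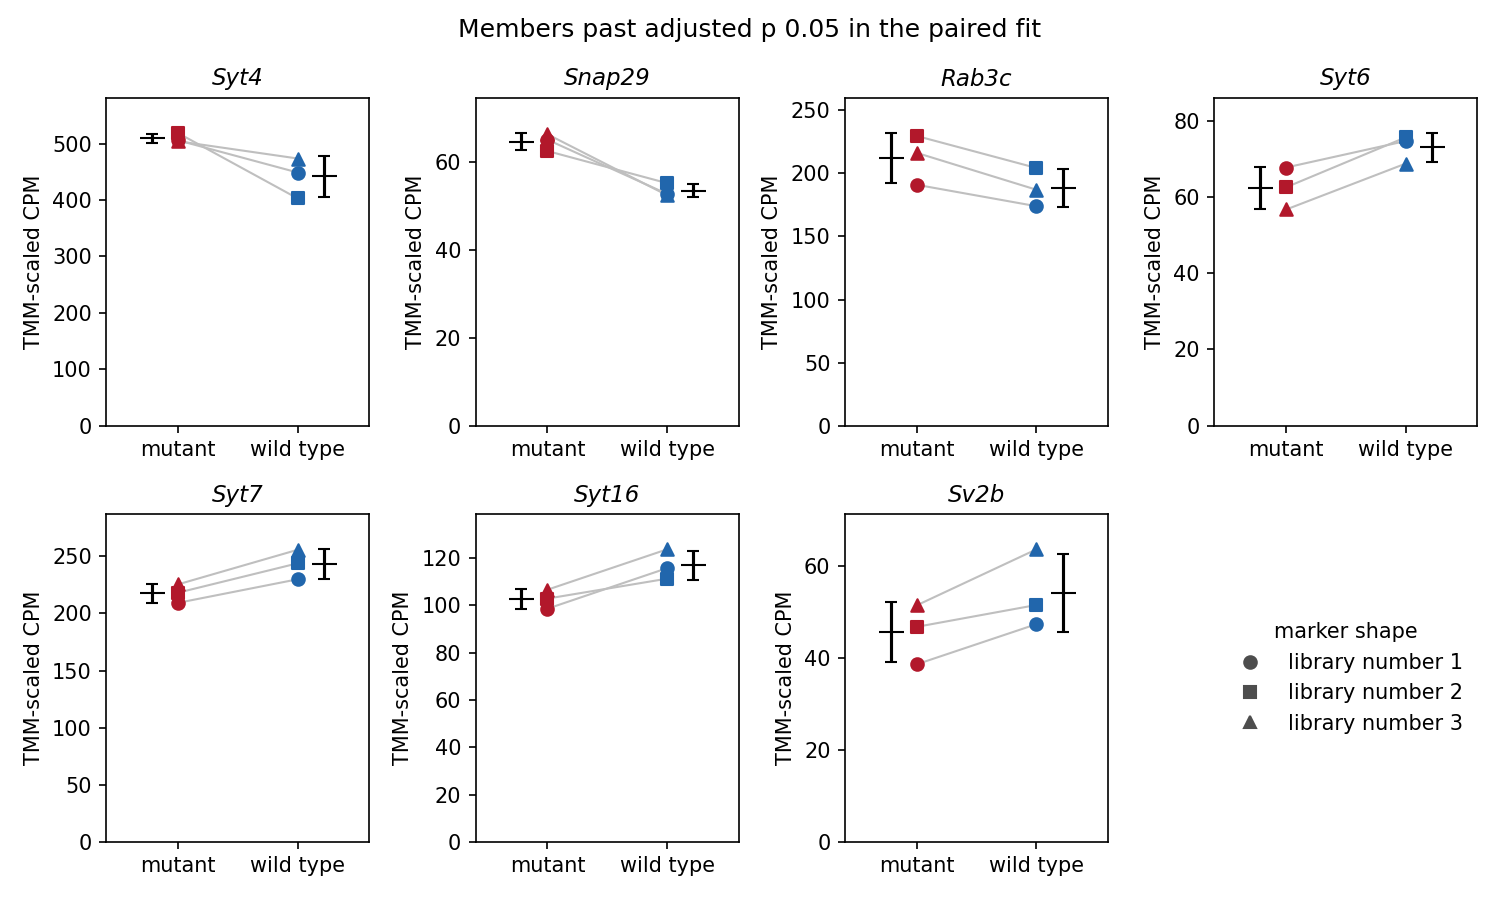
TMM-scaled CPM (y axis, from 0) in each library for the 7 genes past an adjusted p of 0.05 in the paired fit, mutant at left (red) and wild type at right (blue). Marker shape gives the library number, grey lines join libraries of the same number, and black bars are mean ± SD (n = 3). Every grey line slopes down to the right for Syt4, Snap29 and Rab3c and up for Syt6, Syt7, Syt16 and Sv2b, an agreement that selection by the paired fit favours.

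Synaptotagmins, which bind membranes and in several cases calcium through a pair of C2 domains, held 4 of the 7 calls. They were also 15 of the 67 tested genes. Of these 15, 1 rose, 3 fell and 11 did not pass in the paired fit, which called 3.46% of all genes. Only Syt6 among them was called without pair 1, Syt3, Syt6, Syt7 and Syt16 without pair 2, and 0 without pair 3. Syt4 belongs to a pair, with Syt11, whose first C2 domain carries a change at a calcium-binding residue. It was 506, 519 and 504 CPM in mutant libraries 1, 2 and 3, against 449, 403 and 474 CPM in wild-type libraries 1, 2 and 3. The groups did not overlap, with mutant libraries close together and the wild-type ones spread more widely. Unpaired, its log2 fold change was 0.21 (SE 0.07) with edgeR adjusted p = 0.525, and the paired adjusted p was 0.0409. Its partner Syt11 was 336 ± 4.8 CPM in mutant and 326 ± 10.8 CPM in wild-type libraries (SD, n = 3 each), and its log2 fold change of 0.04 (SE 0.05) did not pass either fit. Syt4 lies on chromosome 18, at about 31437800 to 31447400 of GRCm38 (rounded positions). Of its exon bases, 14.5% are shared with an antisense transcript, Gm26658, whose reads could be counted with Syt4 if strand was ignored.

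Syt6 and Syt7 fell in the paired fit. Syt7, a high-affinity calcium sensor for slow release and facilitation, was 209, 218 and 226 CPM in mutant libraries 1, 2 and 3, against 230.0, 244 and 256 CPM in wild-type libraries 1, 2 and 3. Its 3 pairs gave nearly equal log2 ratios of −0.14, −0.16 and −0.18. The unpaired log2 fold change was −0.16 (SE 0.06), with an edgeR adjusted p of 0.615 unpaired and 0.0404 paired. Syt6, which is also used as a marker of deep-layer cortical neurons, was 67.7, 62.5 and 56.7 CPM in mutant libraries 1, 2 and 3, against 74.6, 75.6 and 68.7 CPM in wild-type libraries 1, 2 and 3. Every mutant library lay below every wild-type library, by as little as 67.7 against 68.7 CPM. Its unpaired log2 fold change was −0.23 (SE 0.08), with an edgeR adjusted p of 0.558 unpaired and 0.0252 paired. The related Syt3 differed by −0.17 (SE 0.09) on the log2 scale and was lower in 3 of 3 pairs without passing (edgeR adjusted p = 0.774, paired 0.179). Syt5 was 170.5, 162 and 181 CPM in mutant libraries 1, 2 and 3, against 187, 164 and 181 CPM in wild-type libraries 1, 2 and 3, with overlapping ranges and a log2 fold change of −0.05 (SE 0.07). Syt10 had 6 to 11 reads per mutant library and 8 to 15 per wild-type library.

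Syt16, an atypical synaptotagmin without calcium-binding residues, was 98.5, 103 and 107 CPM in mutant libraries 1, 2 and 3, against 116, 111 and 123.6 CPM in wild-type libraries 1, 2 and 3. The groups did not overlap. Its unpaired log2 fold change was −0.19 (SE 0.06), with an edgeR adjusted p of 0.515 unpaired and 0.0337 paired. The fast calcium sensor Syt1, the main trigger of release in forebrain neurons, was 281, 303 and 317 CPM in mutant libraries 1, 2 and 3, against 290.4, 291 and 329 CPM in wild-type libraries 1, 2 and 3. Those ranges overlapped widely, and its log2 fold change was −0.02 (SE 0.07). Syt9 had one of −0.01 (SE 0.08). Syt2, the fast sensor of brainstem and spinal synapses, was scarce at 0.942, 1.29 and 1.41 CPM in mutant libraries 1, 2 and 3, against 1.75, 2.17 and 1.41 CPM in wild-type libraries 1, 2 and 3. Mutant 3 and wild type 3 were nearly level there, at 28 and 26 reads, and the log2 fold change of −0.55 (SE 0.26) did not pass either fit (edgeR adjusted p = 0.75, paired 0.257). Syt12 was 2.5, 1.79 and 1.36 CPM in mutant libraries 1, 2 and 3, against 3.03, 1.88 and 2.01 CPM in wild-type libraries 1, 2 and 3. The ranges overlapped, and its log2 fold change was −0.29 (SE 0.30), which became −0.05 without wild type 1 and −0.55 without mutant 1. It shares 17.2% of its exon bases with A930001C03Rik on the opposite strand. The other tested synaptotagmins (Syt13, Syt14, Syt15 and Syt17) had log2 fold changes of −0.20 to −0.03, and Syt8 had 0 to 2 reads in mutant and 0 or 1 in wild-type libraries.

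The SNARE proteins that carry out neuronal release showed no call in either fit. Vamp2, the vesicle SNARE of most forebrain synapses, was 445, 397 and 450.3 CPM in mutant libraries 1, 2 and 3, against 491, 386 and 494 CPM in wild-type libraries 1, 2 and 3. Both number 2 libraries were the lowest of the 6, in either genotype. Its log2 fold change was −0.09 (SE 0.10). Snap25, the palmitoylated target-membrane SNARE, was 295, 291 and 314 CPM in mutant libraries 1, 2 and 3, against 304, 254 and 301 CPM in wild-type libraries 1, 2 and 3, with the groups overlapping. Its value of 0.07 (SE 0.08) on the log2 scale turned to −0.01 without wild type 2. Stx1a, the syntaxin of the release site, was 155, 159 and 173 CPM in mutant libraries 1, 2 and 3, against 178, 157 and 180.3 CPM in wild-type libraries 1, 2 and 3. Its log2 fold change was −0.08 (SE 0.07). Vamp1, which serves release in other brain regions and at the neuromuscular junction, had −0.24 (SE 0.21). With the number 2 pair left out, the paired fit has 1 residual degree of freedom and called 12.8% of all genes. It called Vamp2, Vamp1 and Stx1a lower in mutant libraries. Their pair 2 ratios were 0.04, 0.18 and 0.02 on the log2 scale, against −0.14, −0.55 and −0.20 in pair 1 and −0.13, −0.25 and −0.06 in pair 3.

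Among SNAREs of endosomes, Golgi and ER, 1 of 11 tested genes rose in the paired fit, as did 1.97% of all genes. Snap29, which with Stx17 serves fusion of autophagosomes with lysosomes, was 65, 62.4 and 66.2 CPM in mutant libraries 1, 2 and 3, against 52.7, 55.1 and 52.4 CPM in wild-type libraries 1, 2 and 3. The lowest mutant library exceeded the highest wild-type library, at 62.4 against 55.1 CPM. Snap29 had the lowest unadjusted p of the 67 genes in the unpaired edgeR fit, with a log2 fold change of 0.27 (SE 0.06) and an adjusted p of 0.248, or 0.0142 when paired. DESeq2 gave it an adjusted p of 0.0557. Its partner Stx17 was 31.3, 31.6 and 30.1 CPM in mutant libraries 1, 2 and 3, against 29, 29.8 and 26.7 CPM in wild-type libraries 1, 2 and 3. Those groups also did not overlap, though the log2 fold change of 0.12 (SE 0.07) passed neither fit (edgeR adjusted p = 0.813, paired 0.381). Stx6 of the trans-Golgi network was 101, 96.9 and 95.8 CPM in mutant libraries 1, 2 and 3, against 90.6, 87.6 and 95 CPM in wild-type libraries 1, 2 and 3, and its log2 fold change was 0.11 (SE 0.06). Stx18 of the ER was 20.5, 19 and 19.2 CPM in mutant libraries 1, 2 and 3, against 18, 18.2 and 16.9 CPM in wild-type libraries 1, 2 and 3, and its log2 fold change was 0.15 (SE 0.08). The groups were apart for both, and neither passed either fit (edgeR adjusted p = 0.784 and 0.804, paired 0.248 and 0.391). Stx18 shares 19.8% of its exon bases with Gm42858 and 12.5% with Nsg1, both on the opposite strand. Snap47 was 278, 281.7 and 314 CPM in mutant libraries 1, 2 and 3, against 293, 269 and 306 CPM in wild-type libraries 1, 2 and 3, and Stx12, an endosomal syntaxin, was 209, 207 and 216 CPM in mutant libraries 1, 2 and 3, against 224, 207 and 241 CPM in wild-type libraries 1, 2 and 3. Both overlapped between groups. With these 2 genes, the remaining 7 (Stx5a, Stx7, Stx8, Stx12, Stx16, Snap47 and Vamp4) had log2 fold changes from −0.10 to 0.03. Vamp7 was listed at 0 in all 6 libraries.

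The promoter windows of 4 of the called genes are shown to give examples of the range of CpG content among them. A window was also found for Rab3c, which rose, and it holds 11 CG pairs at 50.7% GC, but it is not printed because its start was not found in a GENCODE transcript. They come from RefSeq, build GRCm38.p6, 250 bases before to 50 after the start, 5′ to 3′ on the gene's own strand. Capitals mark CG pairs. The Snap29 window (chr16:17405750-17406049, plus strand) holds 33 of them, and its gene rose. The windows of Syt16 (chr12:73997527-73997826, plus strand), Syt6 (chr3:103574995-103575294, plus strand, the most upstream of 3 windows) and Sv2b (chr7:75309213-75309512, minus strand, the most upstream of 4) hold 42, 16 and 10, and these genes fell.
Snap29: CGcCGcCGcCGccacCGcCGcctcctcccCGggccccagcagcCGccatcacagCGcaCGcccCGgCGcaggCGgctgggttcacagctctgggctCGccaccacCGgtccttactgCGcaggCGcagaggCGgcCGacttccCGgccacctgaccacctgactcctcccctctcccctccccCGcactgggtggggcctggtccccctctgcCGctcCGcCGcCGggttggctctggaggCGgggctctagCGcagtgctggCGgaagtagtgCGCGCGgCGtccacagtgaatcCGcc
Syt16: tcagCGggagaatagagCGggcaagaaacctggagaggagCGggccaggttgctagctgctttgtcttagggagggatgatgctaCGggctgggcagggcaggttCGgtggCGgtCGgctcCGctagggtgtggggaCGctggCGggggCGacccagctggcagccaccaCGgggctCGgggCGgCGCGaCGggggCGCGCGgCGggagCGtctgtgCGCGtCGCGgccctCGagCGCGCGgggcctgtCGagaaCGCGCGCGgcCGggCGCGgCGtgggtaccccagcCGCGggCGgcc
Syt6: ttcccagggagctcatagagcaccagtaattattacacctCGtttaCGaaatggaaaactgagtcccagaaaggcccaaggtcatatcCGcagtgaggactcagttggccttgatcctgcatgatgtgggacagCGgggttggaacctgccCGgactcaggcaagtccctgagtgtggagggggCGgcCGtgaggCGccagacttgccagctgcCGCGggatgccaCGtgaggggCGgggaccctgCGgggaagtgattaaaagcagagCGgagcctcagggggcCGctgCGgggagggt
Sv2b: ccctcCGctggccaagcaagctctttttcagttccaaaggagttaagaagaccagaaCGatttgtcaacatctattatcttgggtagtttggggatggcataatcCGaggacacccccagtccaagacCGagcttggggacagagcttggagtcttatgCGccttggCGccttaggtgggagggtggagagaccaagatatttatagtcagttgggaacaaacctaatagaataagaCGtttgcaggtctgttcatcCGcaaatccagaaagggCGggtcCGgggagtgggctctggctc

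Windows were found for 56 of the 72 genes, 72 windows in all. Their median CG count was 19, against 7 over all 32851 windows of the same length, and their median GC content was 62.2% against 52.7%. The 4 motifs below were searched on both strands, and no motif is contained in another. TATAAA, the TATA box core, was in the windows of 4 of the 56 genes (7.14%, against 15.7% of all genes with a window): Rab3b, Stx2, Stx3 and Sv2b. CCAAT was in 17 (30.4%, against 41.1%). The cyclic AMP response element TGACGTCA was found for Syn1 alone and the Egr motif GCGTGGGCG for Unc13a alone, each 1.79% of the 56, against 2.03% and 0.707% of all genes. A match is a description of the letters in these windows.

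SNAREs of other cell-surface fusion gave 0 calls among 8 tested in the paired fit on all libraries. Stx3, at 17.5, 19.2 and 19.2 CPM in mutant libraries 1, 2 and 3, against 19.7, 12.6 and 14.1 CPM in wild-type libraries 1, 2 and 3, had a log2 fold change of 0.27 (SE 0.16). Mutant 1 lay below wild type 1 while pairs 2 and 3 went the other way. Among the paired fits, it was called (higher) only in the one without pair 1. Stx2 was 34.6, 32.3 and 35 CPM in mutant libraries 1, 2 and 3, against 31.1, 31.9 and 28.4 CPM in wild-type libraries 1, 2 and 3, with a log2 fold change of 0.16 (SE 0.07). The groups were apart by 32.3 against 31.9 CPM. Vamp8, a SNARE of secretory and immune cells, was 3.39, 1.96 and 1.76 CPM in mutant libraries 1, 2 and 3, against 4.36, 3.43 and 1.69 CPM in wild-type libraries 1, 2 and 3. Vamp5, best known from muscle, was 1.32, 0.667 and 0.705 CPM in mutant libraries 1, 2 and 3, against 1.9, 1.5 and 0.381 CPM in wild-type libraries 1, 2 and 3. Both were scarce and overlapped between groups, with log2 fold changes of −0.42 (SE 0.39) for Vamp8 and −0.50 (SE 0.55) for Vamp5. Without wild type 1 these were −0.12 for Vamp8 and −0.10 for Vamp5, and at the other extreme −0.77 for Vamp8 without mutant 1 and −0.92 for Vamp5 without wild type 3. For both the number 1 libraries were the highest of their genotype, as for the choroid plexus and meninges markers. Wild type 2 exceeded wild type 3 for both genes and the meninges markers, but not for the choroid plexus markers. Mutant 2 exceeded mutant 3 for Vamp8 and both sets of markers, but not for Vamp5. The part of these tissues was not tested. Stx11, singled out after its values were seen, had 21, 23 and 17 reads in mutant and 11, 8 and 15 in wild-type libraries and passed neither fit (log2 fold change 0.71 (SE 0.33), edgeR adjusted p = 0.745, paired 0.282). Vamp3, a SNARE of recycling endosomes, was 41.2, 32.3 and 32.1 CPM in mutant libraries 1, 2 and 3, against 44.8, 31.1 and 34.4 CPM in wild-type libraries 1, 2 and 3, overlapping between groups. On the log2 scale Vamp3 differed by −0.06 (SE 0.16) and Stx4a by −0.07 (SE 0.09), Snap23 had −0.00 (SE 0.11), and Stx19 had 0 reads in every library.

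Complexins clamp and promote the assembled SNARE complex. Cplx2, the form of forebrain excitatory neurons, was 327, 355 and 343 CPM in mutant libraries 1, 2 and 3, against 387, 344 and 401 CPM in wild-type libraries 1, 2 and 3. Pairs 1 and 3 showed lower mutant values and pair 2 a slightly higher one. Its log2 fold change was −0.14 (SE 0.07) (edgeR adjusted p = 0.763, paired 0.21). Cplx1 was 150.4, 147 and 152 CPM in mutant libraries 1, 2 and 3, against 168, 149.7 and 171 CPM in wild-type libraries 1, 2 and 3, with a log2 fold change of −0.12 (SE 0.06), and it too passed neither fit on 6 libraries. Both were among the 14 lower calls when pair 2 was left out. That fit has 1 residual degree of freedom and called 12.8% of all genes. Cplx4, a retinal complexin, had 0 reads in mutant libraries and 0 or 1 in wild-type libraries. Stxbp2, the form of epithelial and blood cells, was 61.3, 66 and 63 CPM in mutant libraries 1, 2 and 3, against 73.4, 61.2 and 68 CPM in wild-type libraries 1, 2 and 3. The ranges overlapped, with a log2 fold change of −0.09 (SE 0.08), and Stxbp4, Stxbp5 and Stxbp6 had values of 0.02 to 0.13.

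**Figure D2:**
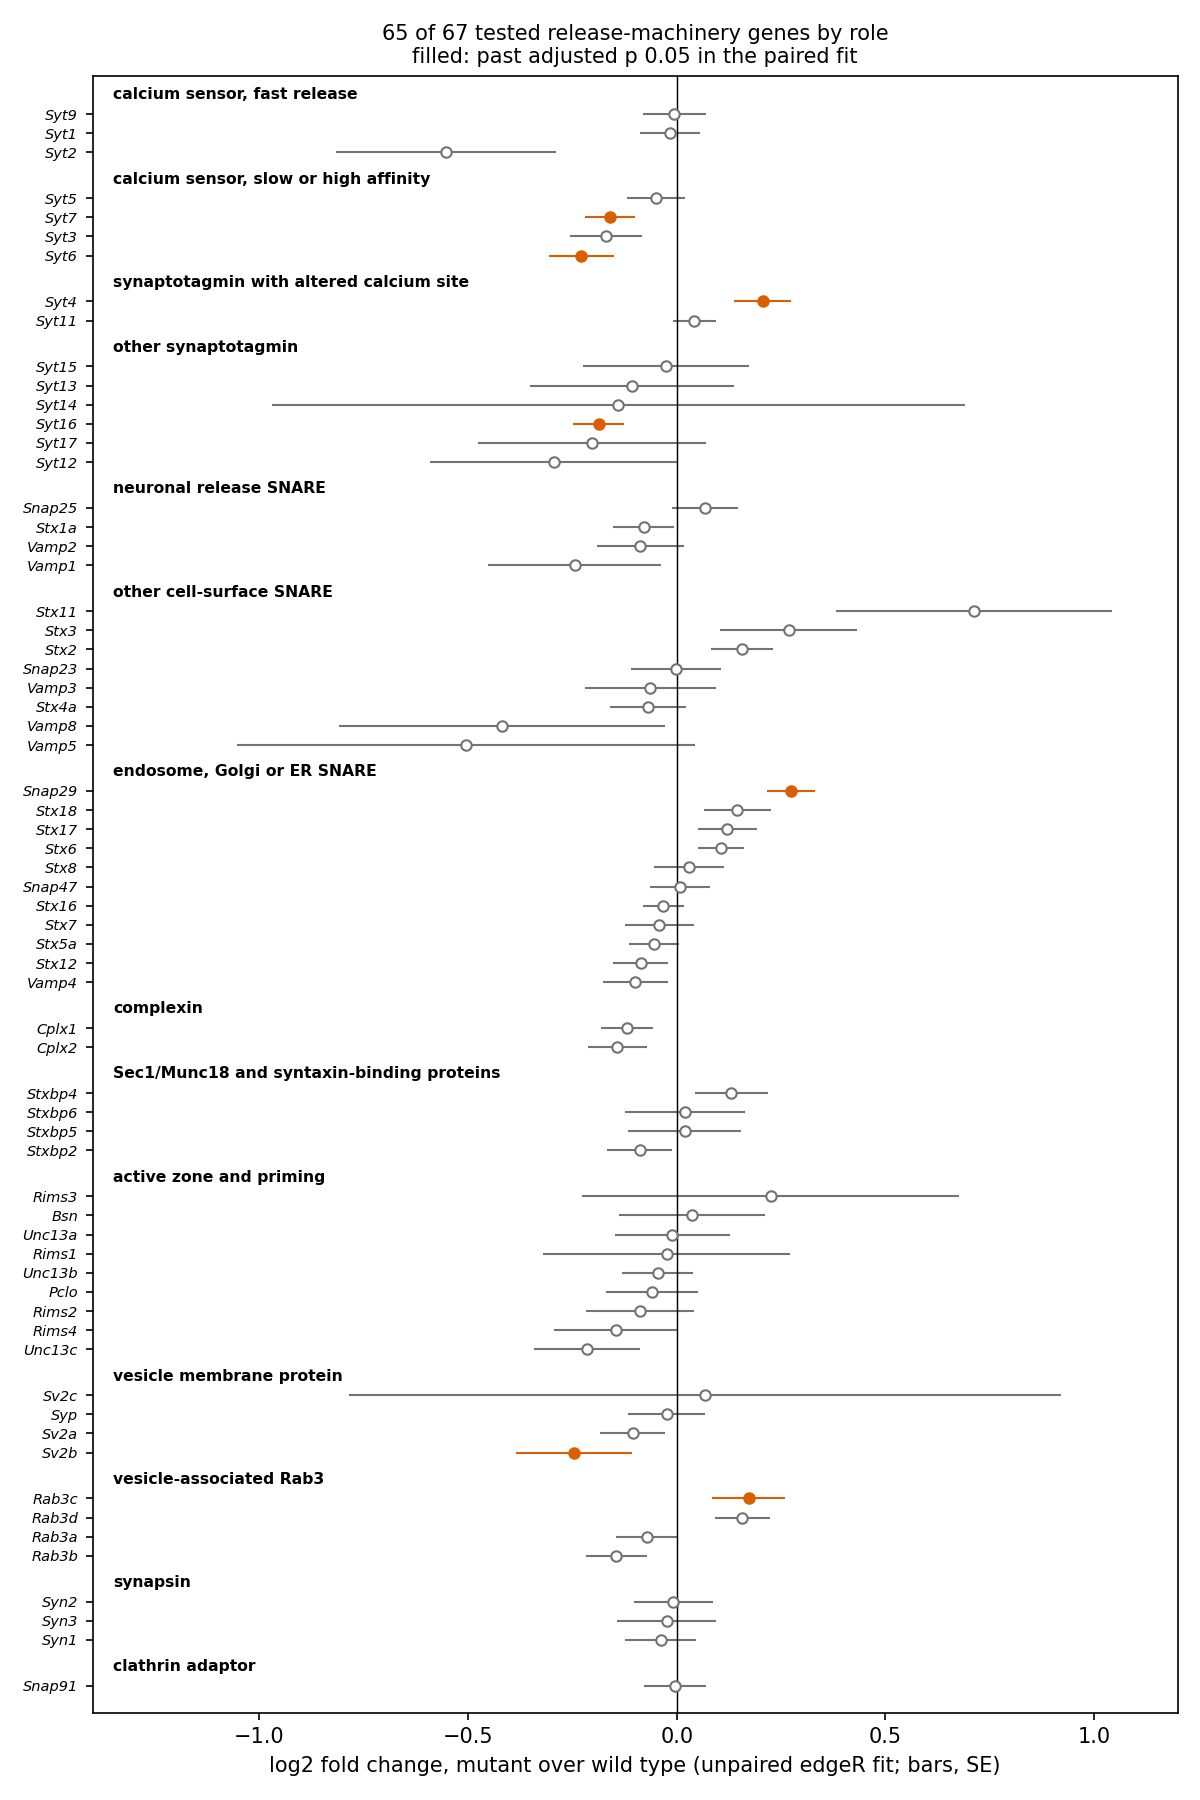
Log2 fold change, mutant over wild type (x axis), of 65 of the 67 tested genes, with the SE of the unpaired edgeR fit as bars. Genes are grouped from top to bottom by a role assigned to each symbol, which for Syt5 and Syt9 is uncertain. Filled orange points passed an adjusted p of 0.05 in the paired fit, namely Syt4, Snap29 and Rab3c to the right of 0 and Syt6, Syt7, Syt16 and Sv2b to the left. Of the genes plotted, 0 passed in the unpaired fit.

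Vesicle membrane proteins gave 1 call among 4 tested in the paired fit, which called 3.46% of all genes. Sv2b, a vesicle glycoprotein that binds synaptotagmin, was 38.6, 46.8 and 51.4 CPM in mutant libraries 1, 2 and 3, against 47.3, 51.5 and 63.6 CPM in wild-type libraries 1, 2 and 3. The groups overlapped, and within each number the mutant library was lower, with log2 ratios of −0.29, −0.14 and −0.31. The unpaired log2 fold change was −0.25 (SE 0.14), with an edgeR adjusted p of 0.81, and the paired adjusted p was 0.038. Leaving out 1 library moved this value: it was −0.12 without wild type 3, −0.14 without mutant 1 and −0.34 without wild type 1. Sv2a, its widely expressed relative, was 211, 222 and 239 CPM in mutant libraries 1, 2 and 3, against 251.7, 217 and 253 CPM in wild-type libraries 1, 2 and 3, with a log2 fold change of −0.11 (SE 0.08) that passed neither fit on 6 libraries. Synaptophysin (Syp), a major membrane protein of the vesicle, was 269.8, 271 and 314 CPM in mutant libraries 1, 2 and 3, against 300.2, 257 and 312 CPM in wild-type libraries 1, 2 and 3. Its log2 fold change was −0.02 (SE 0.09), with overlapping groups and a sign that turned when single libraries were left out. An antisense transcript, Gm14703, shares 16.8% of its exon bases.

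Rab3 proteins are vesicle GTPases that bind Rim at the active zone. In the paired fit 1 of 4 rose, as did 1.97% of all genes. Rab3c was 191, 229.6 and 216 CPM in mutant libraries 1, 2 and 3, against 174, 204 and 187 CPM in wild-type libraries 1, 2 and 3. The groups overlapped, as mutant 1 lay below wild type 2, but each mutant library exceeded the wild-type library of its number. The log2 fold change was 0.17 (SE 0.09), with an edgeR adjusted p of 0.767 unpaired and 0.0284 paired. It was 0.11 without mutant 2 and 0.24 without mutant 1. Rab3d, the form of secretory cells, was 56.8, 60.5 and 59.6 CPM in mutant libraries 1, 2 and 3, against 54.5, 49.3 and 54.8 CPM in wild-type libraries 1, 2 and 3. The groups did not overlap, and the log2 fold change of 0.16 (SE 0.07) missed both thresholds (edgeR adjusted p = 0.678, paired 0.175). Rab3a, the main brain form, was 253, 254 and 288 CPM in mutant libraries 1, 2 and 3, against 291, 258 and 286 CPM in wild-type libraries 1, 2 and 3, a log2 fold change of −0.07 (SE 0.07). Rab3b was 42.5, 42.7 and 42.4 CPM in mutant libraries 1, 2 and 3, against 49, 42.7 and 49.4 CPM in wild-type libraries 1, 2 and 3. The groups were apart by only 42.68 against 42.72 CPM, and its log2 fold change was −0.14 (SE 0.07). About 9% of Rab3b's exon bases (8.99%) are shared with the antisense transcript 8030443G20Rik.

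Synapsins tether vesicles to the cytoskeleton and to each other. Syn1 was 192, 189.9 and 215 CPM in mutant libraries 1, 2 and 3, against 201, 186 and 226 CPM in wild-type libraries 1, 2 and 3, with a log2 fold change of −0.04 (SE 0.08). Syn2 was 101, 90.4 and 102 CPM in mutant libraries 1, 2 and 3, against 104, 85.2 and 106 CPM in wild-type libraries 1, 2 and 3. Its value of −0.01 (SE 0.09) turned to 0.003 when libraries were scaled by total counts alone. Syn3, at −0.02 (SE 0.12), and the clathrin adaptor Snap91 (AP180), at −0.00 (SE 0.07), passed neither fit. Syn3 shares 14.1% of its exon bases with Timp3 on the opposite strand.

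Active zone scaffolds and priming factors had 0 calls among 9 tested genes between genotypes, and 7 of the 9 were split by library number. For Bsn, Pclo, Rims1, Rims2, Rims3, Unc13a and Unc13b, both number 2 libraries lay above the other 4. Over all tested genes 15.2% did so. The share was 52.3% among tested genes with 10 kb of exon and over, as Bsn, Pclo, Rims2, Unc13a and Unc13b have. It was 23.2% at 5 to 10 kb, the range of Rims1 and Rims3. Bsn was 132, 177 and 142 CPM in mutant libraries 1, 2 and 3, against 126, 185 and 129.5 CPM in wild-type libraries 1, 2 and 3. Its genotype difference was 0.04 (SE 0.17). Unc13a (Munc13-1), the priming factor of most forebrain glutamate synapses, was 257, 319 and 257 CPM in mutant libraries 1, 2 and 3, against 241, 334 and 265 CPM in wild-type libraries 1, 2 and 3, a genotype difference of −0.01 (SE 0.14). Rims1, which links Rab3 to calcium channels, was 15.6, 30.05 and 22.9 CPM in mutant libraries 1, 2 and 3, against 16.1, 29.9 and 23.8 CPM in wild-type libraries 1, 2 and 3. The number 1 libraries were the lowest, with nearly the same value in both genotypes, and the genotype difference was −0.02 (SE 0.30).

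Rims3 spread most among the 7, at 4.76, 14.5 and 10.1 CPM in mutant libraries 1, 2 and 3, against 4.83, 11 and 9.41 CPM in wild-type libraries 1, 2 and 3. Number 1 libraries were again lowest, and the genotype difference of 0.23 (SE 0.45) turned to −0.18 without mutant 2 and to −0.05 without wild type 1. Pclo was 105, 124.2 and 114 CPM in mutant libraries 1, 2 and 3, against 101, 135 and 121 CPM in wild-type libraries 1, 2 and 3. Rims2 was 36.7, 44 and 40.5 CPM in mutant libraries 1, 2 and 3, against 35.9, 50.5 and 42.7 CPM in wild-type libraries 1, 2 and 3. Both were highest in number 2 libraries, with genotype differences of −0.06 (SE 0.11) and −0.09 (SE 0.13). Unc13b (Munc13-2) was 109.9, 121 and 105 CPM in mutant libraries 1, 2 and 3, against 104, 126 and 117 CPM in wild-type libraries 1, 2 and 3. Its genotype difference was −0.05 (SE 0.09), and Rims4, which did not follow the pattern, had one of −0.14 (SE 0.15). Unc13c, a Munc13 form best known from cerebellum, was 5.51, 5.67 and 6.19 CPM in mutant libraries 1, 2 and 3, against 6.59, 6.57 and 7.02 CPM in wild-type libraries 1, 2 and 3. Every mutant library was below every wild-type library, yet the log2 fold change of −0.22 (SE 0.13) passed neither fit (edgeR adjusted p = 0.813, paired 0.391).

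**Figure D3:**
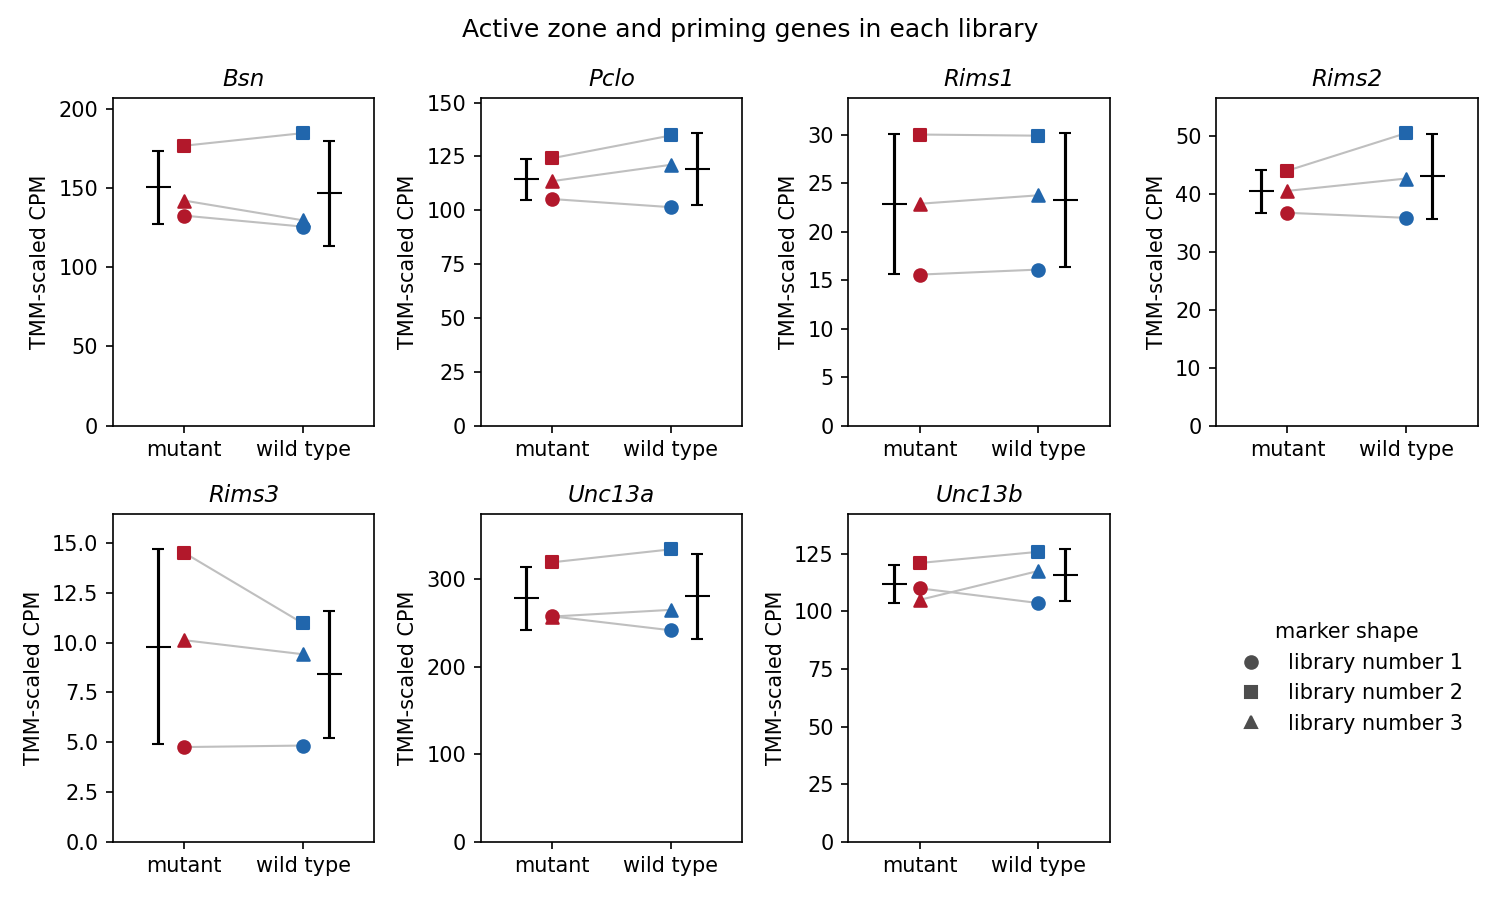
TMM-scaled CPM (y axis, from 0) of 7 active zone and priming genes in each library, mutant at left (red) and wild type at right (blue), with marker shape for library number, grey lines between libraries of the same number and black bars for mean ± SD (n = 3). The squares, library number 2, lie above the circles and triangles in both genotypes for each of the 7 genes.

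The split by library number reached other members, a pattern chosen after the values were seen and given with no test. Sv2c, a vesicle glycoprotein best known from basal ganglia, was 0.659, 3.46 and 0.856 CPM in mutant libraries 1, 2 and 3, against 0.758, 3.38 and 0.653 CPM in wild-type libraries 1, 2 and 3, and Syt14, a calcium-independent synaptotagmin, was 0.707, 4.04 and 1.56 CPM in mutant libraries 1, 2 and 3, against 1.04, 4.97 and 0.979 CPM in wild-type libraries 1, 2 and 3. In both genes the 2 number 2 libraries stood clear of the other 4 in either genotype. Stxbp5 (tomosyn, an inhibitor of SNARE assembly) and Syn3 complete the 11 of 67 genes (16.4%, against 15.2% of all) with both number 2 libraries highest. In 14 genes (20.9%, against 14.5% of all) both were lowest, among them Vamp1, Vamp2, Snap25, Syn1, Syn2, Stx12 and Cplx1. Striatal markers summed to 109, 102 and 109.8 CPM in mutant libraries 1, 2 and 3 and 134, 116 and 117 CPM in wild-type libraries 1, 2 and 3. The part of striatal tissue in the split was not tested.

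The 11 genes highest in number 2 libraries were long, with a median annotated exon length of 12.3 kb, against 4.52 kb in the 14 lowest ones. Of the 12 members of 10 kb and over, 8 were highest in number 2 libraries (66.7%, against 52.3% of the 1441 tested genes of that length), and of the 32 under 5 kb, 0 were (against 4.01% of 8185). Across the 67 genes, Spearman's rho between exon length and the log2 ratio of number 2 to other libraries was 0.50, and across 14500 tested genes with a length it was 0.40. These points share the same 6 libraries, and the part of length in the split was not tested. Library number was balanced between genotypes, and 0 of the 67 genes passed the unpaired edgeR fit with both number 2 libraries left out, a setting chosen after the data were seen.

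**Figure D4:**
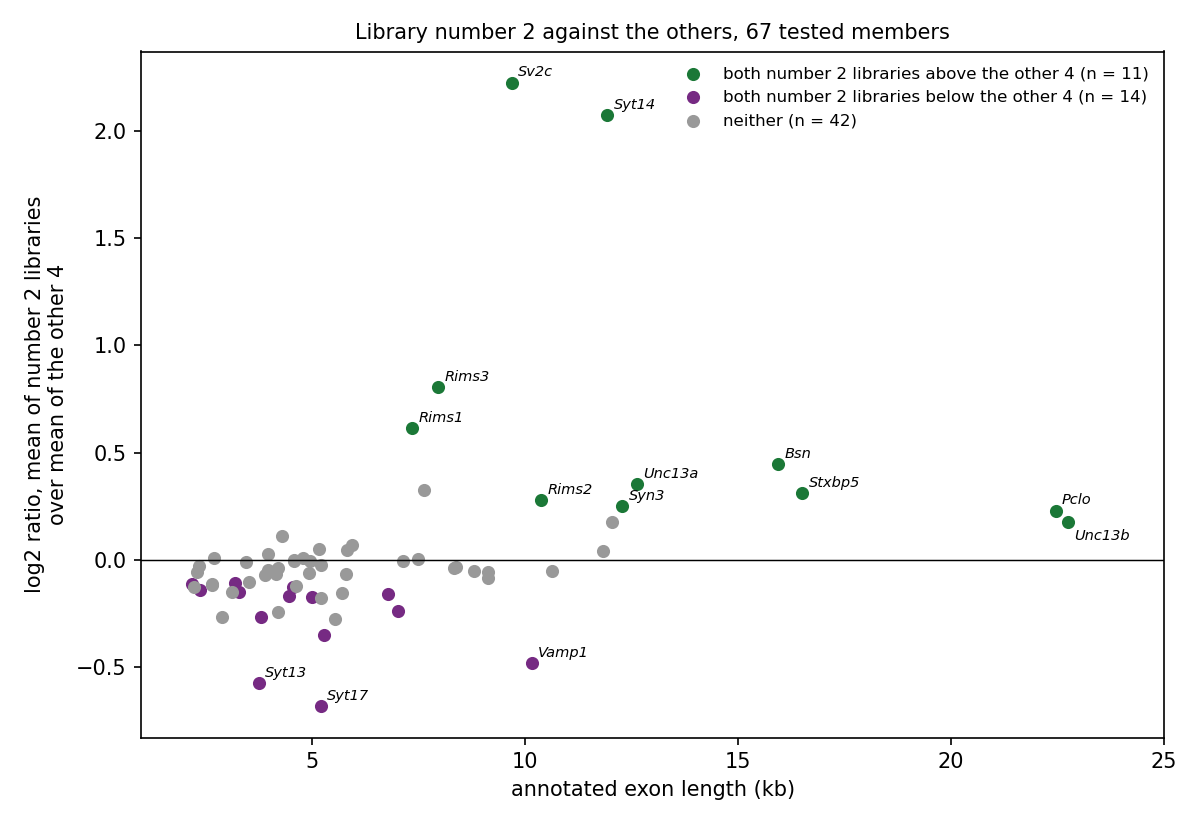
Log2 ratio of the mean level in the 2 number 2 libraries to the mean in the other 4 (y axis) against annotated exon length in kb (x axis), 1 point per tested gene (n = 67). Green points are the 11 genes with both number 2 libraries above the other 4, mostly long genes such as Bsn and Pclo, purple points the 14 with both below, and grey points the other 42.

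Levels were compared between genes per kb of annotated exon, as the mean over all 6 libraries. Syt4 (122 ± 11.3 CPM per kb, SD, n = 6), Rab3a (122 ± 8.31), Vamp2 (116 ± 12) and Snap47 (109.5 ± 6.47) had the highest levels among the genes reported, and their ranges over libraries overlapped. A gap without overlap set them off from Syt5 (73.2 ± 4.29), Cplx2 (73 ± 5.78), Cplx1 (71.5 ± 4.72), Stx12 (68.2 ± 4.17), Syt11 (63.6 ± 1.76), Stx1a (62.7 ± 4.21) and Syn1 (61.1 ± 4.8), neighbours that overlapped in turn. Snap25 had 43.2 ± 3.06 CPM per kb, Syt1 36.2 ± 2.19 and Unc13a 22.1 ± 3.00. At the low end, Syt2, Syt14, Stx11 and Sv2c had under 0.2 CPM per kb, and the highest mean was 729 times the lowest. Snap47 shares 11.6% of its exon bases with Jmjd4 on the opposite strand.

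The choice of length mattered for this order. With the longest principal transcript in place of all exons joined, 28 of the 67 levels were more than 1.5 times as high. Syt7 then had 171.5 CPM per kb, against 30.8 by all exons, and Snap25 had 138.5. Syt4, Rab3a, Vamp2 and Snap47 stayed among the first 7, which then also held Syt7 and Snap25. By that length Syt4 had 122 CPM per kb, Syp 111 and Syt5 99.5. The gap below Syt4, Rab3a, Vamp2 and Snap47 thus depended on the length used. The genotype differences do not depend on length.

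**Figure D5:**
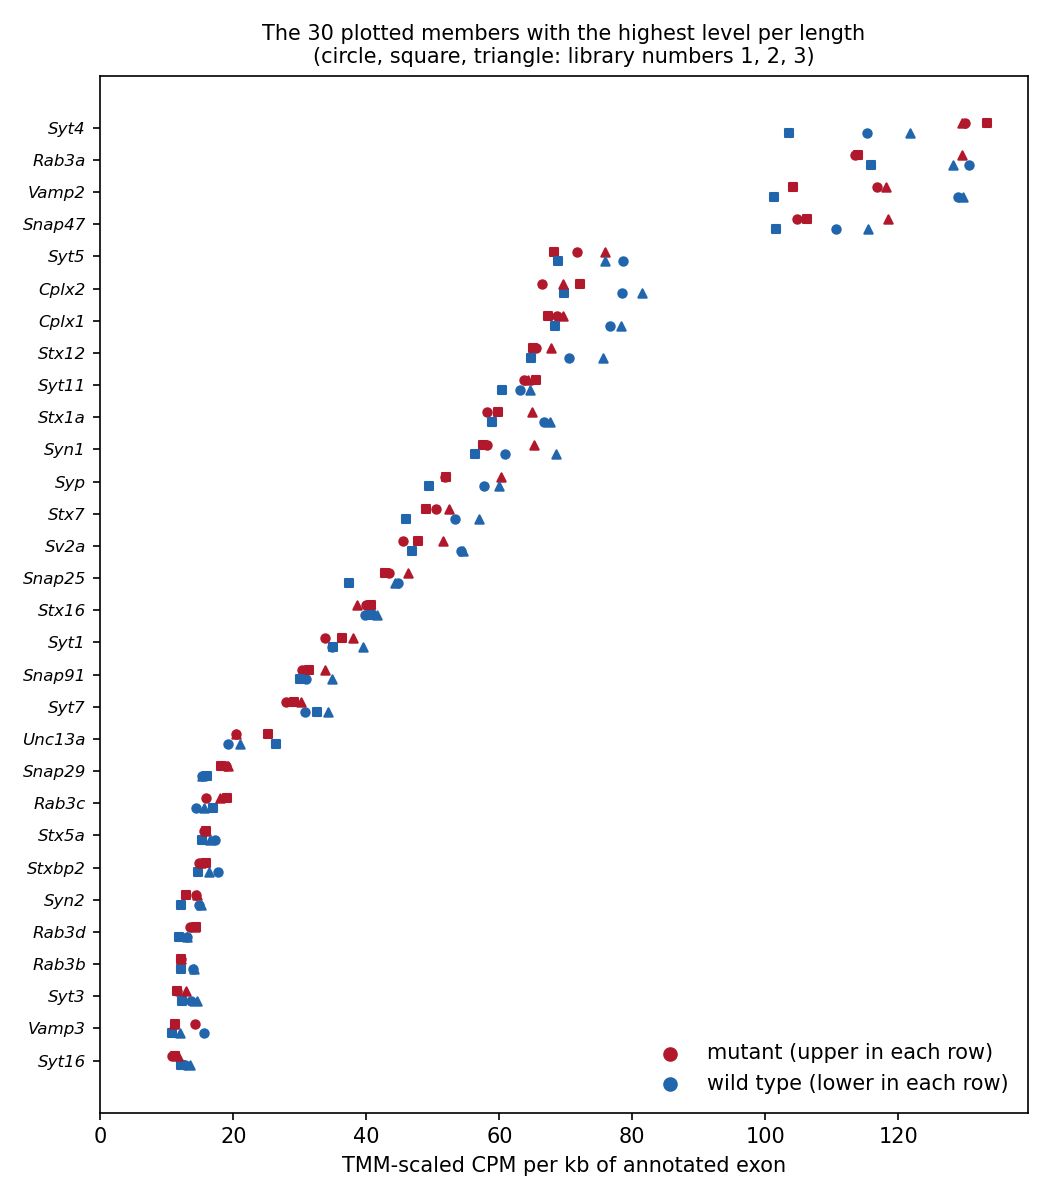
Level per kb of annotated exon (x axis, TMM-scaled CPM per kb, from 0) in each library for the 30 plotted members with the highest mean, mutant in the upper and wild type in the lower part of each row, with marker shape for library number. Syt4, Rab3a, Vamp2 and Snap47 lie between 101 and 133 CPM per kb, clear of Syt5 and the genes after it.

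Other genes of the release pathway, outside the symbol rule, were taken from 8 lists. Of 102 tested, 3 rose and 3 fell in the paired fit (5.88%, against 3.46% of all genes), 96 did not pass, and 0 passed without pairing. The median log2 fold change was −0.03. Among 18 genes of priming and calcium sensing, Cplx3, a complexin of retina and cortical subplate, fell. It had 0.0942, 0.167 and 0.302 CPM in mutant libraries 1, 2 and 3, against 0.806, 1.11 and 0.816 CPM in wild-type libraries 1, 2 and 3, and the groups were far apart at a low level. Its log2 fold change was −2.26 (SE 0.43), with an edgeR adjusted p of 0.19 unpaired and 0.0104 paired. Cplx3 passed the low-count filter only through its wild-type libraries, where it is higher. Its p-values, and its place among the 3 that fell, are therefore no support for a difference.

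Among 14 other vesicle membrane genes Vat1 and Rab27b rose in the paired fit. Vat1, a vesicle amine transport protein homologue, was 127, 122 and 132 CPM in mutant libraries 1, 2 and 3, against 111, 103 and 109 CPM in wild-type libraries 1, 2 and 3 (log2 fold change 0.24, edgeR adjusted p = 0.358, paired 0.00549). Rab27b, a secretory GTPase related to Rab3, was 8.24, 7.34 and 8.96 CPM in mutant libraries 1, 2 and 3, against 5.92, 5.7 and 5.93 CPM in wild-type libraries 1, 2 and 3 (log2 fold change 0.48, edgeR adjusted p = 0.439, paired 0.0465). Among 13 active zone scaffold genes, Apba1 (Mint1, a Munc18 partner) rose by 0.15 on the log2 scale (paired edgeR adjusted p = 0.0491) and Ppfia4 (a liprin-alpha) fell by 0.22 (paired edgeR adjusted p = 0.0454). Among 23 endocytosis genes Sh3gl2 (endophilin A1) fell by 0.22 (paired edgeR adjusted p = 0.00813). The SNARE recycling (4 tested), transmitter transporter (5), proton pump (15) and calcium channel (10) lists had 0 calls in either fit.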

How the data were processed

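RNA sequencing libraries from 6 pools of mouse neocortex at embryonic day 18.5 were prepared, per the labels' protocols, with a TruSeq kit that keeps strand. The authors deposited raw counts of reads per gene symbol. HTSeq 0.5.3p9, Bowtie2 2.1.0, TopHat2 2.0.9, CASAVA 1.8.2 and the build mm10 appear in the submitters' processing notes. Settings, annotation and the strand option of HTSeq were not stated there, so 21 members that share exon bases with another gene are uncertain to that extent. All columns were used (0 left out), and every row named a gene.

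The test was that of edgeR 4.0.16 under R 4.3.3 (quasi-likelihood test, robust, TMM scaling, default low-count filter, two-sided, Benjamini-Hochberg over 14618 genes). SE was derived from the F statistic. P-values measure the spread between pools in the unpaired fit. In the paired fit they measure the spread left after library number is taken out. CPM uses TMM-scaled totals. Alternatives were a replicate block, DESeq2 1.42.0, other scaling, no filter and left-out libraries. Fits were also run on simulated counts, drawn with no effect of library number, so that run could not check the pairing.

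Same-numbered libraries' deviations from group means correlated at 0.61, 0.51 and 0.47 across genes, all above the bound of 0.1, so numbers were taken as pairs. This comes from the data, not the labels. Same-genotype libraries differed beyond sampling noise (chi-square per degree of freedom 7.13 to 23.1).

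Coordinates, exon lengths and overlaps come from GENCODE M21 (GRCm38), which matched 71 of 72 members by symbol. The members and lists were chosen with earlier results of these data known. Named genes were those past either fit, those whose groups did not overlap at a mean of at least 1 CPM, the first 2 of each family by level, the 5 largest changes each way, and those below the filter. Some of these are not reported here.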

Additional observations from a re-analysis of the deposited data

How the results depend on the processing

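Without pairing, 0 of the 67 genes passed under each setting run: no low-count filter, other scalings, DESeq2, any 1 library left out, or both number 1 or both number 2 libraries left out, the last 2 chosen after the data were seen. The replicate block gave 7, and with 1 pair left out it gave 3, 17 and 0 (pairs 1, 2 and 3). Over all genes the counts were 11 as reported, 506 with the replicate block, 20 with no filter, 102 with DESeq2, 3 without both number 2 and 2 without both number 1 libraries. They ran from 3 to 35 with 1 library left out, and with the block were 295, 1874 and 62 without pairs 1, 2 and 3. The median over the 67 stayed between −0.082 and −0.019.

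Leaving out 1 library moved the unpaired log2 fold change by over 1.5 times, or turned it, for 28 of the 42 genes covered by the naming rule, with Rab3c and Sv2b the only ones among the 7 called when paired. Those 7 kept their sign in every fit run. Signs that turned (log2 fold changes) were of uncalled genes: with library totals only, Syn2 0.0028, without both number 2 libraries, Snap47 −0.018 and Unc13a 0.024, and without both number 1 libraries, Syn2 0.010 and Syp 0.040. With the block they were Stxbp2 0.0017, Syn2 0.016 and Syp 0.043 without pair 1, Snap47 −0.020 and Unc13a 0.025 without pair 2, and Snap47 −0.0056, Syn2 0.023, Unc13a 0.015 and Unc13b 0.015 without pair 3. With 1 library left out, signs turned within these ranges: Bsn (−0.094 to 0.24), Pclo (−0.16 to 0.040), Rims1 (−0.27 to 0.20), Rims2 (−0.21 to 0.044), Rims3 (−0.18 to 0.56), Snap25 (−0.011 to 0.11), Snap47 (−0.045 to 0.047), Syn1 (−0.10 to 0.038), Syn2 (−0.10 to 0.047), Syp (−0.10 to 0.031), Unc13a (−0.12 to 0.14), Unc13b (−0.12 to 0.020) and Vamp3 (−0.19 to 0.10). The cause was not tested. Syt8, Syt10, Cplx4 and Stx19 had too few reads at this depth to compare.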
